A study of Homo sapiens with 32 samples.

Results

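Axon guidance ligands and their receptors were followed as 69 genes out of the 58317 in the authors' deposited table, chosen by gene symbol alone: the semaphorins of classes 3 to 7, the plexins and neuropilins, the ephrins and Eph receptors, the SLIT ligands and ROBO receptors, the netrins, the UNC5 receptors and DCC. The set holds 35 ligands and 34 receptors, and all 69 are protein coding in GENCODE 29. Guidance cues are secreted or membrane-bound proteins that steer growing axons and migrating cells by attraction or repulsion, and their receptors pass the signal to the actin cytoskeleton. Secreted class 3 semaphorins mostly bind a neuropilin that is paired with a plexin, whereas other semaphorins bind plexins directly. Ephrins bind Eph receptor tyrosine kinases on touching cells, SLIT proteins repel cells that carry ROBO, and netrins act through DCC or the UNC5 receptors. In the neural crest, the origin of neuroblastoma, these families guide migrating cells.

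The cells are TET21 (SH-EP/TET21/N), a human neuroblastoma line, in 32 libraries that form 8 groups of 4. EV carries the empty vector, WT full-length MYC, and d0x, d1, d2, d3a, d3b and d4 a MYC deletion mutant each. The labels do not spell out the deleted segments, which are taken here to be the conserved MYC boxes that the mutants are numbered after. The labels' protocol states doxycycline at 1 µg/mL over 7 days, worded for cells expressing WT but attached to every library. This line is known to carry a MYCN transgene that doxycycline switches off. Replicates are numbered 4 to 7 in each group, and nothing says that they are separate cultures, so the spread between them may be technical.

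What was analysed is the authors' own result for 7 comparisons, 1 of WT against EV and 6 of a mutant against WT. Each gives a log2 posterior fold change (called the fold below, always a log2 difference between groups) and the PPDE, the posterior probability that a gene is differentially expressed. A gene is called, and is said to have risen or fallen, at a PPDE of at least 0.95, which the file headers set equal to a false discovery rate below 0.05. Per-library levels, sequencing depths and errors of the folds were not analysed here, so no SD or n stands beside a single fold and levels of different genes are not compared. All 6 mutant comparisons and WT against EV share the WT libraries, so a chance deviation in WT moves the former one way and the latter the other way. In the authors' deposited table MYC itself stood at 0.98 in WT against EV (PPDE 0.348) and was called in no comparison. For d0x, d1, d2, d3a, d3b and d4 against WT its folds there were 0.57, 0.46, 0.68, 0.67, -0.09 and 0.57. MYCN stood at -0.38 in WT against EV (PPDE 0.077) in the authors' deposited table. Among markers of the cell type, the authors' deposited table gave values in WT against EV to 6 of 7 adrenergic and 8 of 8 mesenchymal neuroblastoma genes. A value shows only that reads were present in WT or EV. TH, the dopamine-synthesis enzyme that defines adrenergic cells, had no value in any comparison.

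Over the 69 genes there were 12 calls, spread over 8 members: SLIT3 was called in 3 comparisons, SEMA3E and PLXNA2 in 2, and SEMA3G, SEMA4A, NRP1, EPHA4 and NTN4 in 1. The other 61 members were never called. In WT against EV 7 of the 66 members with a value were called (10.6%), 1 risen and 6 fallen, beside 4.91% of all genes and 9.83% of protein-coding genes, of which 3.88% rose and 5.96% fell. The members' share of calls is thus near that of protein-coding genes. The 7 called in WT against EV belong to 7 different families of the 10.

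**Figure D1:**
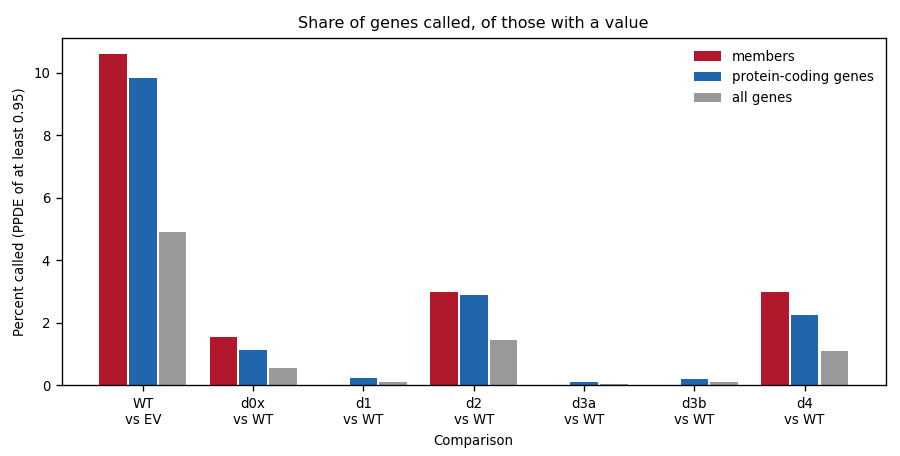
Percent of genes called (vertical axis, PPDE of at least 0.95, of genes with a value) in each comparison (horizontal axis) for the 69 members, protein-coding genes and all genes; there are no error bars, since each bar is 1 count. In WT against EV the members stand at 10.6% and protein-coding genes at 9.83%, and the members were called in 3 of the 6 mutant comparisons.

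The authors' second table lists genes given a MYC binding site, mapped in 1 experiment in cells expressing WT. It holds 29 of the 66 members with a value in WT against EV (43.9%), beside 50.1% of protein-coding and 24% of all genes with a value. SLIT3, PLXNA2 and NRP1 are the called members with a site, and the other 5 have none listed. Promoter windows from RefSeq on GRCh38.p14, running from 250 bases before a gene's start to 50 after it, were found for 59 of the 69 members, 91 windows in all, and none was given for NRP1. They were searched for CACGTG, the E-box bound by MYC with MAX, which reads the same on both strands. It occurred in 4 of the 91 windows (4.4%), those of SEMA3E, SEMA4D, SEMA6D and EPHA8, beside 7.26% of all 35116 windows. None of the 43 windows of members with a listed site held it, beside 10.1% of the 10558 windows of all genes with a site. The windows of SLIT3 and PLXNA2 are shown because these are the members with a site that were called most often, and that of SEMA3E because it is the risen member and holds the motif, in capitals. Each is written 5′ to 3′ on the gene's own strand.
SLIT3, chr5:169301090-169301389, minus strand: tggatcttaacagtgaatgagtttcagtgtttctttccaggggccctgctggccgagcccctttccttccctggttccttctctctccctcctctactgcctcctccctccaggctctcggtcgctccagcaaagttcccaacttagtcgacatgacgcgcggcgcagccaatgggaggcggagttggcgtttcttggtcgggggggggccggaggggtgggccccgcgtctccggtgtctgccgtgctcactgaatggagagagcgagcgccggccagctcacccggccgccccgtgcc
PLXNA2, chr1:208244335-208244634, minus strand: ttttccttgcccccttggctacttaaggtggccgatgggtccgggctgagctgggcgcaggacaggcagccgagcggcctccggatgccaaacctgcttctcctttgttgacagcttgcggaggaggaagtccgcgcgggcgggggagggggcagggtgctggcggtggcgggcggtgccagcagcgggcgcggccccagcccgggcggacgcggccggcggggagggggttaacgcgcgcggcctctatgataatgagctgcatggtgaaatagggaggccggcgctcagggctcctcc
SEMA3E, chr7:83649090-83649389, minus strand: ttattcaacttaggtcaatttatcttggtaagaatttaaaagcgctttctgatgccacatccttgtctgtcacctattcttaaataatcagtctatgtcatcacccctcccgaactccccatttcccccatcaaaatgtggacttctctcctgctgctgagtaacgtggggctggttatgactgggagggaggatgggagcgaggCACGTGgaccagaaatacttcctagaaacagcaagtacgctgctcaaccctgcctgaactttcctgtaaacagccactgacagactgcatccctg
In the SEMA3E window the motif begins 45 bases before the gene's start. SEMA3E has a further window without it, and it is not in the table of binding sites. A match of letters is no evidence of binding, and its absence from a window says nothing of sites elsewhere.

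The first comparison, WT against EV, bears on full-length MYC. The secreted ligand SLIT3, a repellent cue for ROBO-bearing cells, had the deepest fall of all called members, and SEMA3E, a secreted semaphorin that signals through plexin-D1 without a neuropilin, was the risen one. In the authors' deposited table SLIT3 stood at -2.16 and SEMA3E at 1.08, each with a PPDE of 1.00. The membrane-anchored semaphorin SEMA4A fell to -1.95 (PPDE 0.978) and the laminin-related secreted netrin NTN4 to -0.71 (PPDE 1.00) in the authors' deposited table. Among the receptors, PLXNA2, which carries class 3 and class 6 semaphorin signals, stood at -1.34 (PPDE 0.972) in the authors' deposited table. NRP1, a co-receptor for class 3 semaphorins and for the growth factor VEGF-A, stood at -0.72 (PPDE 1.00) in the authors' deposited table. EPHA4, an Eph kinase that binds ephrins of the A and B classes, stood at -0.80 (PPDE 0.986) in the authors' deposited table. All 3 called receptors fell.

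Receptors and ligands were placed differently around 0. Of the 30 receptors with a value in every comparison, 25 stood below 0 in WT against EV (83.3%), with a median of -0.35. Of the 35 ligands 17 did (48.6%), with a median of 0.01. The same count over protein-coding genes was 57.1%, with a median of -0.07. This difference between receptors and ligands was noticed in the data and is given as a description, with no test, and only 3 of the receptors below 0 were called.

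**Figure D2:**
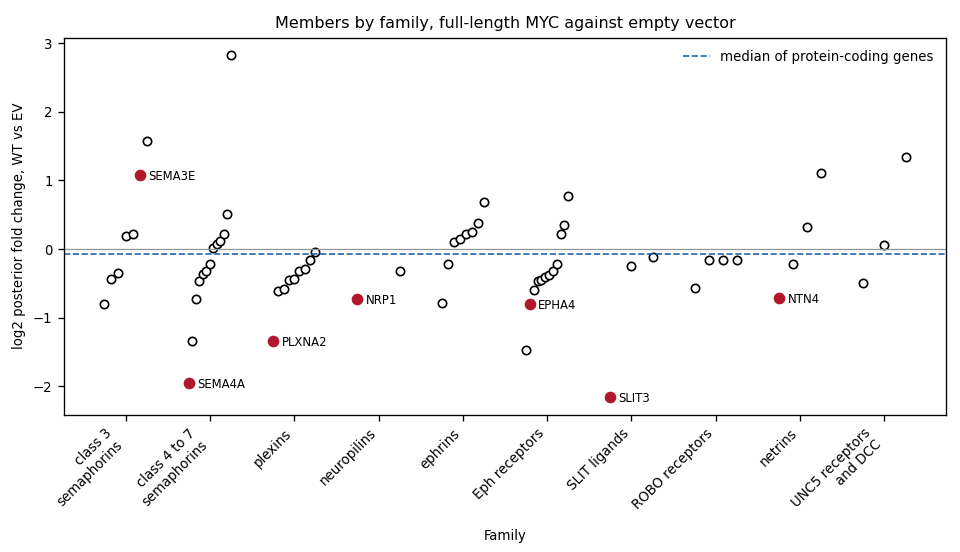
Log2 posterior fold change in WT against EV (vertical axis) of each member with reads in WT, by family (horizontal axis); red points are called, the others are not, and the dashed line is the median of protein-coding genes, -0.07. All 9 plexins and 4 ROBO receptors lie below 0, while ephrins and class 3 semaphorins lie on both sides.

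Class 3 semaphorins, all secreted, ranged widely. Above SEMA3E stood SEMA3G at 1.57 in the authors' deposited table, just short of a call with a PPDE of 0.903, and SEMA3B and SEMA3D followed below SEMA3E at 0.22 and 0.19. Below 0, SEMA3C, known for its part in heart and vessel development, stood at -0.80 with a PPDE of 0.644 in the authors' deposited table, SEMA3F at -0.43 and SEMA3A, the prototype growth cone repellent, at -0.35. Thus 1 of 7 members rose and none fell in that table, beside 3.88% of protein-coding genes risen and 5.96% fallen. In the authors' separate fit of genes with a site, SEMA3C was called fallen at -0.78 (PPDE 0.963).

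The 13 semaphorins of classes 4 to 7 are mostly membrane-bound, and SEMA4A was the 1 called. SEMA7A, which is anchored by a lipid and binds plexin-C1 and integrins, came next in the authors' deposited table at -1.34 with a PPDE of 0.931, followed by SEMA5A at -0.73 with 0.816. In the authors' separate fit of genes with a site SEMA7A was called at -1.27 (PPDE 0.986), SEMA5A at -0.71 (PPDE 0.964) and SEMA3C at -0.78 (PPDE 0.963), which brings the members called there to 6 of 29, beside 15.8% of all genes in that table. These 3 calls therefore differ between the 2 deposited fits, whose folds for the 29 members differed by 0.01 to 0.07 in this comparison. SEMA6D had the highest fold of the family, 2.83, with a PPDE of 0.00 in the authors' deposited table, so a large fold alone does not mark a change here.

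All 9 plexins stood below 0 in WT against EV, from PLXNA2 at -1.34 to PLXNA4 at -0.05, with a median of -0.43 in the authors' deposited table. PLXNA2 alone was called. PLXNA3 at -0.62, PLXND1, the receptor of SEMA3E, at -0.59 and PLXNB2, a receptor for class 4 semaphorins, at -0.45 had PPDE values of 0.059, 0.296 and 0.00985 in the authors' deposited table. NRP2, the other neuropilin, stood at -0.33 with a PPDE of 0.373 in the authors' deposited table, so that of the pair only NRP1 passed the threshold; whether the 2 differ was not tested.

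Among the 8 ephrins none was called in WT against EV, and 6 stood above 0, led by EFNA3 at 0.68 in the authors' deposited table. EFNA2 at -0.79 and EFNB2 at -0.22 were the 2 below 0 in the authors' deposited table. Of the 12 Eph receptors with a value 9 stood below 0, and EPHA4 alone fell. EPHA7 had a deeper fold, -1.47, but a PPDE of 0.222, and EPHA6 the highest, 0.77 with a PPDE of 0.102, in the authors' deposited table. EPHA2, an Eph receptor often abundant in tumours, stood at -0.45 with a PPDE of 0.0124 in the authors' deposited table.

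Of the SLIT ligands SLIT3 alone fell. SLIT2 stood at -0.24 (PPDE 0.181) and SLIT1 at -0.12 (PPDE 0.00136) in the authors' deposited table. The 4 ROBO receptors stood between -0.56 for ROBO3, with a PPDE of 0.343, and -0.16 in the authors' deposited table, and none was called. NTN1, the founding netrin, stood at 1.10 with a PPDE of 0.211 in the authors' deposited table, on the other side of 0 from NTN4. NTN3 at 0.32 and NTN5 at -0.22 were not called either. Their receptors UNC5A at 1.34, UNC5B at -0.50 and UNC5C at 0.06 had PPDE values of at most 0.0904 in the authors' deposited table.

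No value was given in some comparisons for 4 receptors, DCC, EPHA8, EPHA10 and UNC5D, which by the file headers means that neither group had reads. WT had no reads of any of them. Reads of DCC, the attractive netrin receptor, were present in d2 and d3a but not in EV, d0x, d1, d3b or d4. EPHA10 had reads in d1 and d3b, EPHA8 in d4, and UNC5D in EV, d1, d2 and d4. Since WT was at 0, no fold is given for these genes, and none was called. The reading was checked on all 6626 genes that lacked some values: 12159 of their folds of a mutant against WT were above 0 and 2 below.

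**Figure D3:**
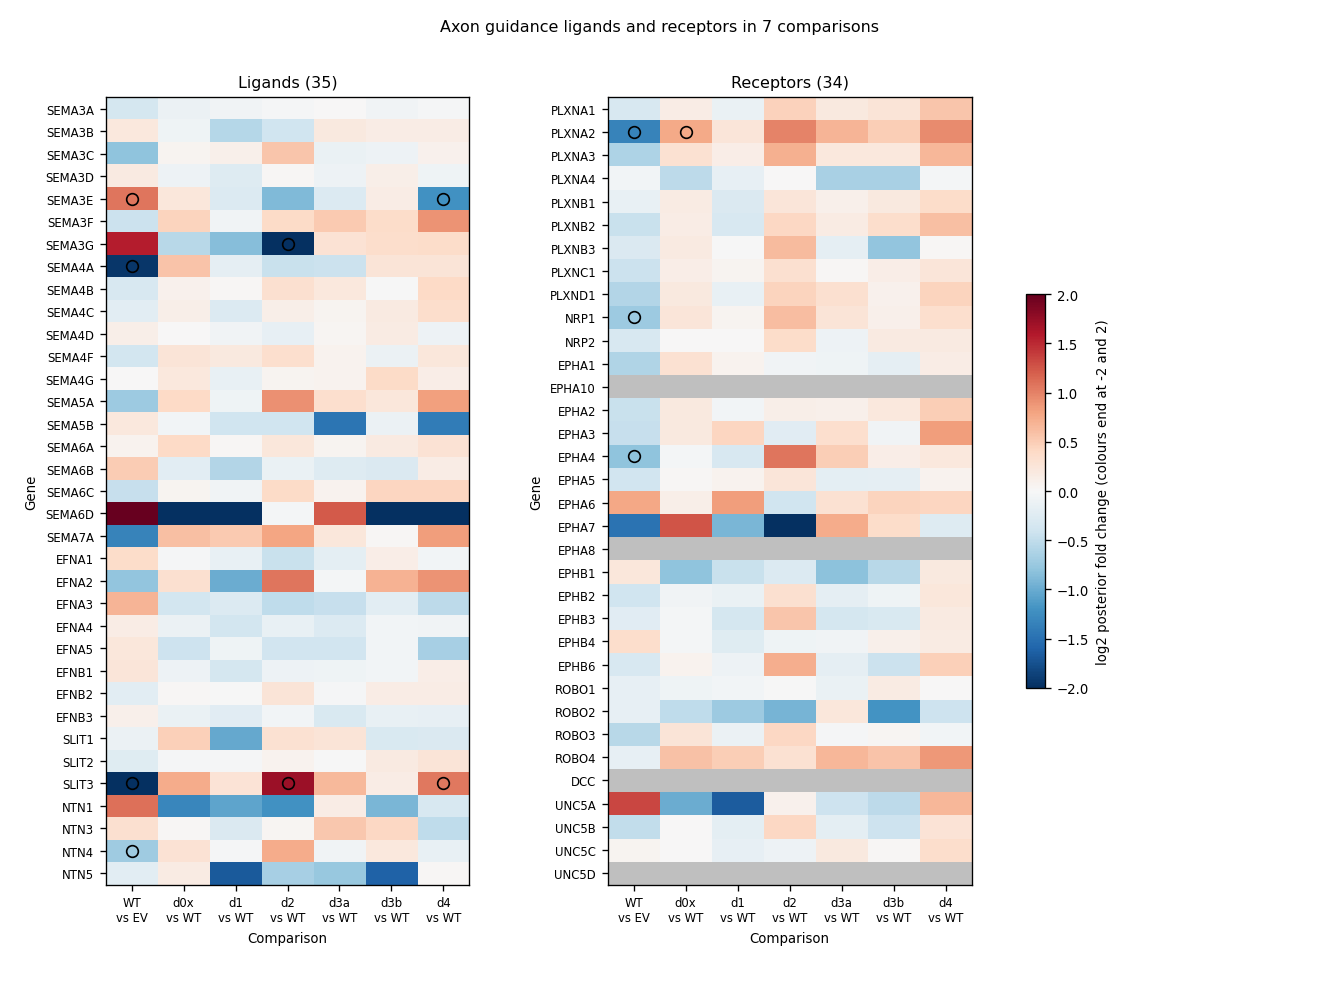
Log2 posterior fold change (colour, blue below and red above 0, colours end at -2 and 2) of 35 ligands and 34 receptors (rows) in 7 comparisons (columns); circles mark calls, and the 4 grey rows are genes without reads in WT. The 12 circles fall in the columns of WT against EV (7), d0x (1), d2 (2) and d4 (2).

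Each mutant was then compared with WT, to ask how a deletion alters what WT does. In d2 2 of the 67 members with a value were called, SLIT3 risen and SEMA3G fallen, beside 1.45% of all and 2.9% of protein-coding genes. In the authors' deposited table SLIT3 stood at 1.71 (PPDE 0.994) and SEMA3G at -2.13 (PPDE 0.974). SLIT3 has a listed site, and in the separate fit of such genes it was not called, at 1.76 with a PPDE of 0.882. There SEMA5A was called instead, at 0.90 (PPDE 0.999), against 0.91 with a PPDE of 0.404 in the authors' deposited table of all genes, 1 of 29 members beside 4.87% of that table. All 9 plexins stood above 0 in d2, where 56.8% of protein-coding genes did, with a median of 0.44, and none was called. NRP2 at 0.37 (PPDE 0.832) and SEMA3E at -0.88 (PPDE 0.703) came closest to a call in the authors' deposited table.

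In d4 again 2 of 67 were called, SLIT3 at 1.05 (PPDE 0.99) and SEMA3E at -1.21 (PPDE 0.975) in the authors' deposited table, beside 1.11% of all and 2.24% of protein-coding genes. SLIT3 rose and SEMA3E fell. EFNA5, a lipid-anchored ephrin that repels retinal axons, stood at -0.67 with a PPDE of 0.816 in the authors' deposited table and was called in the separate fit at -0.60 (PPDE 0.953). With SLIT3 that makes 2 called of the 29 members with a site, beside 2.64% of that table. Of the 30 receptors with a value in every comparison 26 stood above 0 in d4 (86.7%), beside 57.1% of the 35 ligands and 45.7% of protein-coding genes, and none was called. The highest folds of these were those of PLXNA2 at 0.94, ROBO4 at 0.86, EPHA3 at 0.83 and UNC5A at 0.67 in the authors' deposited table, with PPDE values of 0.313, 0.00, 0.00491 and 0.0201.

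PLXNA2 was the 1 member of 65 called in d0x, where it rose, beside 0.559% of all and 1.14% of protein-coding genes. Its fold was 0.76 with a PPDE of 1.00 in the authors' deposited table. The separate fit called it too, at 0.77 (PPDE 0.999), and EFNA5 besides, at -0.41 (PPDE 0.98), 2 of 29 members beside 2.32% of that table. SEMA4F at 0.25 and SLIT3 at 0.75 followed in the authors' deposited table, with PPDE values of 0.698 and 0.686.

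No member was called in d1, d3a or d3b by either deposited fit. Calls were rare there in general: 0.119% of all and 0.245% of protein-coding genes in d1, 0.0419% and 0.0976% in d3a, and 0.0955% and 0.196% in d3b. The highest PPDE of a member was 0.203 in d3a, that of SLIT3, in the authors' deposited table. In d1 and d3b none exceeded 0.0103, the value of ROBO2 in d3b. Unadjusted p-values were not analysed here. Of the 35 ligands 29 stood below 0 in d1, all 8 ephrins and 4 netrins among them, where 65.9% of protein-coding genes did.

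**Figure D4:**
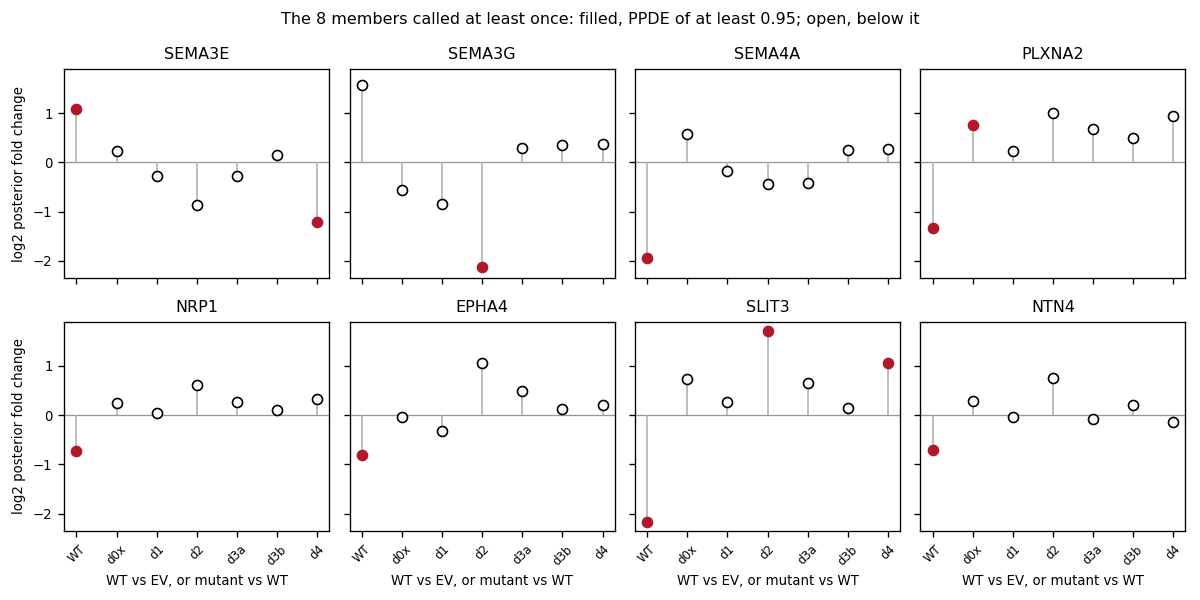
Log2 posterior fold change (vertical axis) of the 8 members called at least once, in WT against EV and in the 6 comparisons of a mutant with WT (horizontal axis); filled points are called and open points are not, and errors were not analysed here. SLIT3 stands at -2.16 in WT against EV and at 1.71 and 1.05 in d2 and d4, while SEMA4A stands at -1.95 and is called in no mutant.

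Across the mutants, in the order d0x, d1, d2, d3a, d3b and d4 against WT, the folds of SLIT3 in the authors' deposited table were 0.75, 0.27, 1.71, 0.65, 0.16 and 1.05. Those of PLXNA2 were 0.76, 0.24, 0.99, 0.68, 0.49 and 0.94 in the authors' deposited table. Both genes, low in WT against EV, stood above 0 in all 6 mutants, as did NRP1, whose folds in the authors' deposited table were 0.24, 0.05, 0.61, 0.26, 0.11 and 0.34. SEMA4A had 0.57, -0.17, -0.44, -0.42, 0.25 and 0.26, and EPHA4 had -0.05, -0.33, 1.07, 0.49, 0.14 and 0.22, in the authors' deposited table. NTN4 had 0.28, -0.03, 0.75, -0.08, 0.21 and -0.14 in the authors' deposited table, so that these 3 lay on both sides of 0. The risen SEMA3E had 0.22, -0.28, -0.88, -0.28, 0.15 and -1.21, and SEMA3G, which was high but not called in WT against EV, -0.56, -0.85, -2.13, 0.28, 0.35 and 0.37 in the authors' deposited table. Both stood well below 0 in d2, and in d4 SEMA3E alone did.

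A fold of WT against EV added to that of a mutant against WT estimates the mutant against EV without WT. It has no PPDE, and posterior folds need not add exactly, so the sums are descriptions. SLIT3 came to -0.46 over EV in d2 and -1.11 in d4, and lay between -1.42 and -2.01 in the other 4 mutants. SEMA3E came to 0.20 in d2 and -0.14 in d4, against 0.80 to 1.30 elsewhere. SEMA3G was below EV in d2, at -0.55, and between 0.72 and 1.95 in the others. EPHA4 at 0.26 and NTN4 at 0.04 in d2 were above 0 there and below 0 in the other 5. SEMA4A lay below 0 in all 6 mutants, at -1.38 to -2.39. NRP1 lay between -0.11 in d2 and -0.67 in d1, and PLXNA2 between -0.34 in d2 and -1.10 in d1.

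Other genes of the pathway were taken from a list of 29 co-receptors, further cues and adhesion partners and 57 intracellular effectors. Of these 86 genes, 10 fell and 1 rose in WT against EV (12.8% called), beside 9.83% of protein-coding genes called, 5.96% fallen and 3.88% risen. The fallen cues and partners were NRCAM, a neural adhesion molecule that joins semaphorin receptor complexes, at -1.64 and RGMB, a ligand of neogenin, at -0.69 in the authors' deposited table. Fallen effectors were the actin regulators MICAL2 at -1.05, ABLIM3 at -1.05 and SSH1 at -0.55, the kinases FYN at -0.46 and ABL2 at -0.55, and the exchange factors TIAM1 at -0.48, FARP1 at -0.62 and DOCK1 at -0.57 in the authors' deposited table. FARP2, a further exchange factor, rose to 0.33.

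In d2 5 of 85 of these genes rose and none fell (5.88% called), beside 2.9% of protein-coding genes called, 231 risen and 244 fallen. They were NRCAM at 1.99, ABLIM3 at 0.85, DOCK1 at 0.35, the netrin and RGM receptor NEO1 at 0.31, and CHL1, an adhesion molecule that had no reads in WT and gets no fold, in the authors' deposited table. In d0x 1 of 84 was called (1.19%), beside 1.14% of protein-coding genes. This was the exchange factor VAV3, which fell to -3.86 with a PPDE of 0.967 in the authors' deposited table. In the same table VAV3 stood at 1.45 in WT against EV (PPDE 0.259) and at -3.82 in d1 (PPDE 0.679), neither called. Its folds in d2, d3a, d3b and d4 were -1.48, -0.52, -2.19 and -1.46. None of these pathway genes was called in d1, d3a, d3b or d4. The share of protein-coding genes called was 2.24% in d4 and at most 0.245% in d1, d3a and d3b.

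Markers of other cell states moved in the comparisons with most calls. The share of protein-coding genes called was 9.83% in WT against EV (5.96% fallen and 3.88% risen) and 2.9% in d2. Of 8 mesenchymal neuroblastoma markers 4 fell in WT against EV, FN1 at -2.51, SNAI2 at -1.35, NOTCH2 at -0.51 and FOSL2 at -0.50, and FN1 at 1.77 and SNAI2 at 1.36 rose in d2, all in the authors' deposited table. Of 6 epithelial markers KRT5, KRT14 and CDH1 fell in WT against EV; the authors' deposited table gives them -5.10, -4.66 and -3.59. Of 7 adrenergic markers HAND2 rose there, to 0.48 in the same table. No Schwann, endothelial or immune marker was called in any comparison. The part of these states in the members' changes was not tested, and in these bulk libraries fewer cells of a state and less RNA per cell cannot be told apart. Amounts of MYC protein were not analysed here. A total of 7 members share their name with a listed antisense gene ending in -AS1, among them SEMA3B, SEMA3F and UNC5B. Since no source used here says that counting used strand, their reads cannot be told apart from the antisense ones. None of the 8 called members is among these 7. Antisense or overlapping genes under other names were not looked for, so the called members are not shown to be free of such reads.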

How the data were processed

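RNA-seq of TET21 cells in 32 libraries was analysed from the authors' deposited tables of comparisons, one of 58317 genes and one of the 9368 with a MYC binding site. Per the file headers, log2 values are posterior fold changes from a Bayesian model, the PPDE is a probability score from 0 to 1, and genes with no reads have no value. The last column of the deposited tables, another quantity, is the number of comparisons called per gene. GRCh37 is the build and STAR 2.5.2a, DESeq, R 3.3.1 and edgeR 3.16.5 are the tools named, without roles, per the submitters' processing notes; how libraries were scaled or sites assigned is not given in the sources used here. The 2 tables give different folds for the same gene, so the second is named wherever it is used.

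Calls were counted with pandas 2.3.3 in Python 3.11.15 at a PPDE of at least 0.95, and the counting was tested on simulated data. Depths per sample and the precision of single folds are unknown, and no count test, gene set test or leave-one-out fit was made. Gene types came from GENCODE 29 by symbol. Members and lists were chosen with earlier results of these data known. Named were all members called at least once, the 2 never called with the highest PPDE in WT against EV, members lacking a value, and listed pathway genes called in WT against EV or in 2 comparisons; other members, called pathway genes and the SEMA3E window were named after their values were seen. As alternatives, calls were recounted at a PPDE of 0.90 or 0.99, with an absolute fold of at least 1, against protein-coding genes, from the second table, with centred folds and with a second motif.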

Additional observations from a re-analysis of the deposited data

How the results depend on the processing

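No paired analysis was possible because the deposited values are comparisons between groups and carry no replicate; for the same reason no replicate could be left out. With a PPDE of at least 0.99, 4 members were called in WT against EV (NRP1, NTN4, SEMA3E and SLIT3), beside 3.97% of all genes. There was 1 in d2 and 1 in d4, SLIT3 in each, beside 1.11% and 0.867%. Of the other axon guidance genes 0 were then called in d0x and 3 in d2, beside 0.429% and 1.11% of all genes. With a PPDE of at least 0.95 and an absolute fold of at least 1, 4 members were called in WT against EV, beside 1.59%. These were PLXNA2, SEMA3E, SEMA4A and SLIT3. At the same limits 0 members were called in d0x, beside 0.0601% of all genes. The table of genes with a site called 6 members with a site in WT against EV, 2 in d0x and 2 in d4, against 3, 1 and 1 in the first table; the cause was not tested. At a PPDE of 0.90 SEMA3G and SEMA7A joined the calls in WT against EV, 9 in all beside 5.51% of all genes. For the PPDE limits of 0.90 and 0.99 and the fold limit, the share of protein-coding genes called was not counted. All members are protein coding, and at a PPDE of 0.95 that share was 9.83% in WT against EV, beside 4.91% of all genes. The shares of all genes are therefore a low background for the members. Counting CACGCG, either strand, as well as CACGTG gave 16.5% of the members' promoter windows, beside 17.4% of all, and 5 of the 43 windows of members with a site (11.6%), beside 27% of windows of all genes with a site. Centring on the median tested gene turned no median of the members. No value here has a known depth, so a member that was not called cannot be said not to have changed.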
